A study of Schizosaccharomyces pombe with 17 samples.

Results

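Fission yeast, Schizosaccharomyces pombe, has 2 mating types that find each other by secreted peptides, and 9 genes of that exchange are described here. They were chosen by systematic ID from the 7027 features of a deposited expression table: the transcription factor gene ste11 (SPBC32C12.02), the M-factor genes mfm1 (SPAPB8E5.05), mfm2 (SPAC513.03) and mfm3 (SPBPJ4664.03), the P-factor gene map2 (SPCC1795.06), the receptor genes mam2 (SPAC11H11.04) and map3 (SPAC3F10.10c), the G protein gene gpa1 (SPBC24C6.06) and the formin gene fus1 (SPAC20G4.02c). All 9 were in the table, and 8 passed the filter of a mean of at least 1 FPKM over all libraries. The one that did not pass was mfm3.

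PolyA RNA was sequenced in 14 libraries, 2 in each of 7 groups, from strains with mutations in the exonucleases of the nuclear exosome, the complex that trims and degrades RNA from its 3′ end. The double mutant rrp6-cat dis3-4 (strain JLP1863) and the single mutant dis3-4 (strain JT449), both temperature-sensitive, were sampled at 23 °C and after 1 h at 30 °C. Strains labelled rrp6Δ (JLP1704) and rrp6-cat (JLP1708) and the wild type (CHP1365) were grown at 32 °C. All cells grew in liquid YES, a rich medium, to mid-log phase. Each genotype was 1 strain, so strain background and mutation cannot be told apart, and dis3-4 strains differed from the wild type also in temperature. The labels give neither a mating type nor the residues changed in rrp6-cat, and they do not say that replicates were separate cultures. The p-values therefore measure the spread between these libraries, which may be technical.

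In nitrogen-starved cells Ste11, a factor with an HMG box, switches on the mating genes. M cells secrete M-factor, a short farnesylated peptide, and carry Mam2, the receptor for P-factor. P cells secrete P-factor and carry Map3, the receptor for M-factor. Both receptors act through the G protein subunit Gpa1 and a MAP kinase cascade, and the formin Fus1 then builds the actin focus at which the cells fuse. In rich medium the programme is normally low, and some meiotic transcripts that escape are marked by the RNA-binding protein Mmi1 and removed by the nuclear exosome.

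The 3 M-factor genes are set out first, because the results turn on the different behaviour of mfm1 and mfm2. Their coding sequences, from RefSeq with assembly ASM294v3, run from start codon to stop codon, and capitals mark the codons of the last 14 residues, which are the same in all 3 translations and hold the peptide.
mfm1: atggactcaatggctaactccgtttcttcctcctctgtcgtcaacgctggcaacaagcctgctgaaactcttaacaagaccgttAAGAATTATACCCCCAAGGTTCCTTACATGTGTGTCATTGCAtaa
mfm2: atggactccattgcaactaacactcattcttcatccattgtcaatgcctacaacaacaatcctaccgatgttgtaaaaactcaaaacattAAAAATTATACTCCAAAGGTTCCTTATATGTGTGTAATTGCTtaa
mfm3: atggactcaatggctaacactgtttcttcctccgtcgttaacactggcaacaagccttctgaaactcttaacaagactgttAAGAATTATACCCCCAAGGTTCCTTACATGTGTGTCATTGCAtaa

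The mfm1 and mfm3 coding sequences were 93.0% identical, and none of the 42 capitalised bases differed between them. The mfm2 coding sequence was 68.1% identical to mfm1 and 70.6% identical to mfm3, and 6 of the 42 capitalised bases differed in each pair. The annotated transcripts of mfm1 and mfm3 shared 24 stretches of 25 bases and a longest run of 48 bases, while those of mfm2 shared none of that length with either. The levels of mfm1 and mfm3 are therefore uncertain to the extent that reads were split between them, and mfm2 does not share this limit. In the reference annotation mfm1 and mfm2 lie on chromosome I, on the plus and the minus strand, and mfm3 lies on the plus strand of chromosome II. Each has 2 exons. Coordinates are not printed, because the deposited values were made on ASM294v2.

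Ste11 binds a short box in the promoters of its targets, and the letters of its core were searched on both strands from 250 bases before to 50 bases after each annotated gene start. The core CTTTGTT was found once in the windows of ste11, mam2, mfm1, mfm2 and mfm3 and in 2 copies in gpa1, and not in those of map2, map3 or fus1. It was present in 529 of 5112 windows of protein-coding genes, or 10.3%. The longer TTCTTTGTT, which contains the core, was found in the windows of ste11, mfm1 and mfm3, and in 102 of the 5112 windows, or 2.0%. The matches of 4 genes are printed with 10 bases to either side and the core in capitals, read on the strand that holds the core.
mfm1: actgagacttCTTTGTTggtcggaccc
mfm2: actgtgatctCTTTGTTcatttgccta
mfm3: tctgagacttCTTTGTTggttgggcct
ste11: agttgaatttCTTTGTTtgattttcat

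The matches lay 79 bases before the gene start in mfm1, 78 in mfm2, 164 in mfm3 and 125 in ste11. Of these, mfm2 holds the core alone and the other 3 hold the longer form. The core of the motif bound by Mmi1, TNAAAC (N is any base), was searched on the sense strand of the spliced transcripts. It occurred 14 times in fus1, 8 times in ste11, 3 times each in mam2 and gpa1, 2 times each in mfm1 and map3, once each in mfm2 and mfm3, and not in map2. Its presence alone is common, with at least 1 match in 4571 of 5113 protein-coding transcripts (89.4%). Per kb of transcript it came to 4.59 in mfm1, 3.7 in mfm3, 2.99 in fus1, 2.43 in mam2, 2.24 in mfm2, 1.99 in ste11, 1.38 in gpa1, 1.14 in map3 and 0 in map2, beside a median of 1.64 over all these transcripts. The values of the M-factor genes rest on 1 or 2 matches in short transcripts. A match to such letters is a description and not a binding site.

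The levels are in FPKM, fragments scaled to transcript length and library size, as the authors deposited them. Being per length, levels of different genes are set side by side here. The annotated transcripts run from 270 bases for mfm3 to 4676 bases for fus1, and how well the scaling holds over that span was not tested. Summed over all features, FPKM came to 618712 to 842245 per library, the lowest being wild type replicate 2, which also had the fewest features at 1 FPKM or more (5619, against 5849 to 6017 in the other 13). The steps between low values put its depth at 0.514 of that of rrp6-cat dis3-4 30 °C replicate 1, and wild type replicate 1 at 2.102 of it. They are the most common ratios among 19 and 54 features, and only 52.6% and 25.9% of those features lay near them. Absolute depth is unknown, as no source used here gives read totals. A value of 0 means only that the table lists the gene at 0: sty1, the gene of the stress-activated MAP kinase, was at or near 0 in 13 libraries and at 0.340 FPKM in the remaining one, of rrp6-cat. The rrp6 gene had 179 and 128 FPKM in libraries with the label rrp6Δ, against 95.4 and 43.2 FPKM in the wild type, so the label was not borne out by this gene's level. They are called the libraries labelled rrp6Δ throughout, and directions drawn from them rest on that label.

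**Figure D1:**
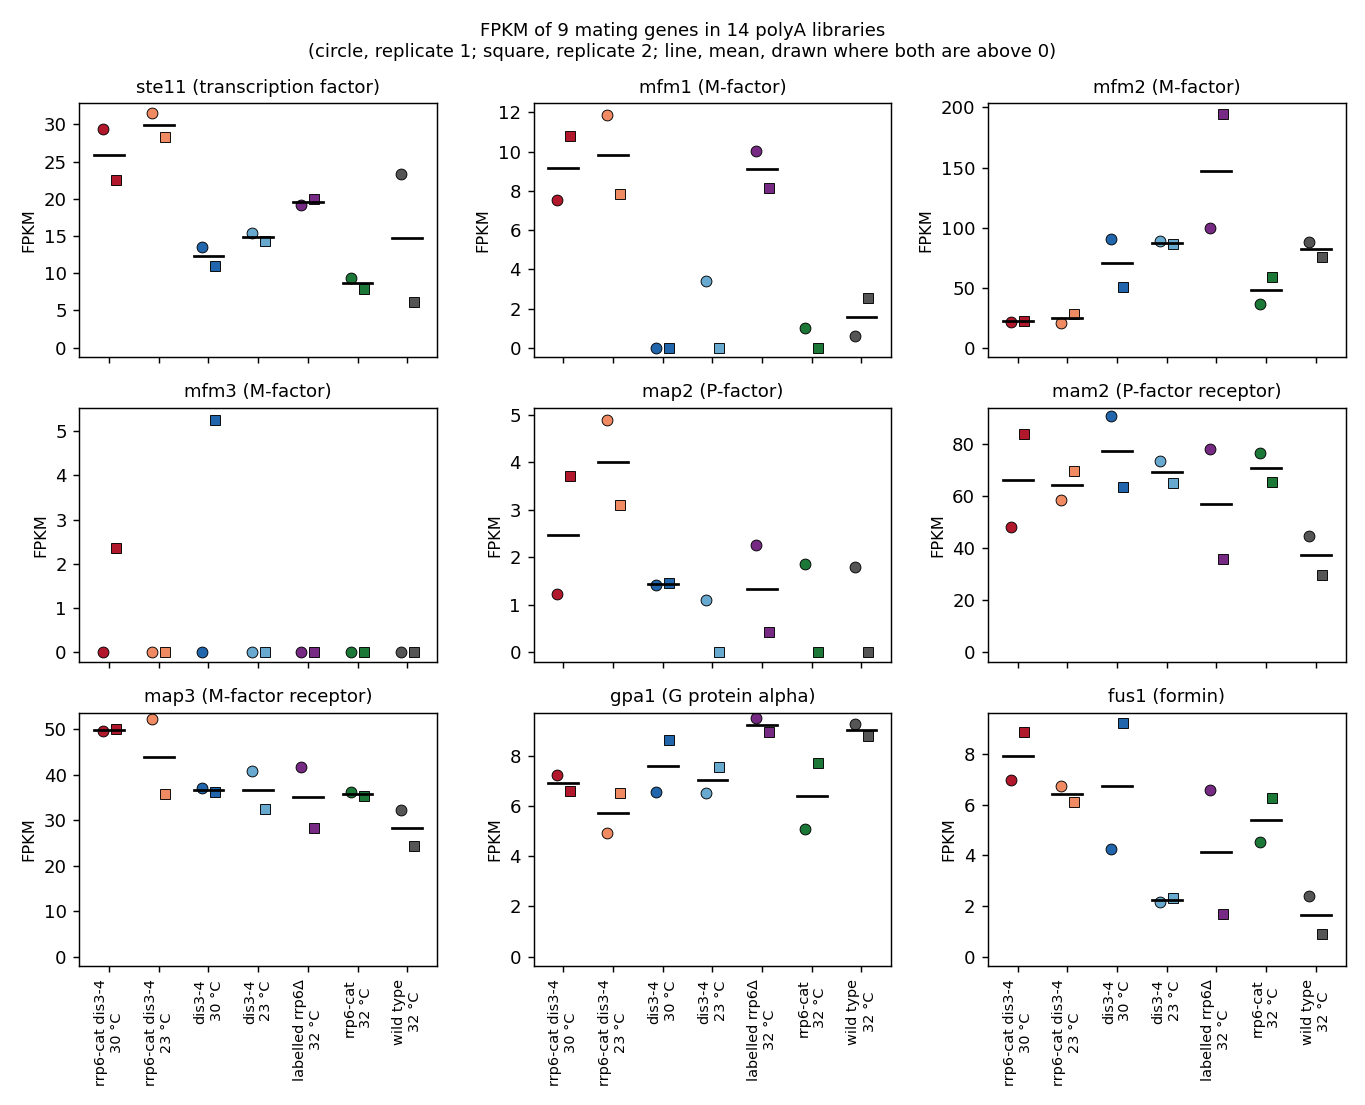
FPKM (linear axis) of the 9 mating genes in each of the 14 polyA libraries, with the groups along the horizontal axis. The rrp6-cat dis3-4 libraries lie at 20.8 to 27.8 FPKM for mfm2, below all 10 others. For mfm1 they lie at 7.54 to 11.9 FPKM, and the libraries labelled rrp6Δ, at 10.0 and 8.16 FPKM, lie within that range.

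The clearest difference among the 9 genes was in mfm2, the most abundant M-factor gene in these libraries, which was lower in the double mutant than in the wild type at both temperatures. It was at 21.5 and 22.6 FPKM in rrp6-cat dis3-4 at 30 °C and at 20.8 and 27.8 FPKM in rrp6-cat dis3-4 at 23 °C. In dis3-4 it was at 90.5 and 50.2 FPKM at 30 °C and at 88.5 and 86.1 FPKM at 23 °C. The libraries labelled rrp6Δ had 99.8 and 195 FPKM and those of rrp6-cat 36.5 and 59.0 FPKM, against 88.4 and 75.1 FPKM in the wild type. The 4 double mutant libraries spanned 20.8 to 27.8 FPKM and the other 10 spanned 36.5 to 195 FPKM, so the ranges did not overlap.

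Tests were made with limma on log2(FPKM + 1) in 1 model of all 14 libraries. P-values were adjusted by the Benjamini-Hochberg method over the 6083 features with a mean of at least 1 FPKM, and a call required an adjusted p under 0.05. Fold changes on this scale understate the change of genes with low values. On this scale mfm2 was lower in rrp6-cat dis3-4 30 °C than in the wild type by a log2 fold change of -1.84 (SE 0.37, limma adjusted p = 0.0071, n = 2 each). The double mutant at 23 °C differed from the wild type by -1.72 (SE 0.37, limma adjusted p = 0.012). Both calls were lost without either of the double mutant's own libraries and with the compared groups fitted alone, and that at 23 °C also with array weights. Over the alternatives the adjusted p ran from 0.0045 to 0.088 at 30 °C and from 0.0089 to 0.12 at 23 °C, and leaving out either wild type library kept both calls.

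The comparison with dis3-4 at the same temperature sets strains with and without rrp6-cat beside each other. Other differences between these strains cannot be told apart from rrp6-cat. At 23 °C mfm2 was lower in the double mutant than in dis3-4 by -1.81 (SE 0.37, limma adjusted p = 0.043), a call that no longer held without any 1 of the 4 libraries compared. At 30 °C the difference was -1.57 (SE 0.37, limma adjusted p = 0.059), which missed the threshold, and the libraries did not overlap. With 2 libraries in each group, lack of overlap describes the values and is not a test. At 32 °C the libraries labelled rrp6Δ were above those of rrp6-cat by 1.57 (SE 0.37, limma adjusted p = 0.061), again without overlap. The order of the group means was 147 ± 67.1 FPKM in the libraries labelled rrp6Δ, 87.3 ± 1.67 in dis3-4 23 °C, 81.8 ± 9.37 in the wild type, 70.4 ± 28.5 in dis3-4 30 °C, 47.8 ± 15.9 in rrp6-cat, 24.3 ± 4.95 in rrp6-cat dis3-4 23 °C and 22.0 ± 0.818 in rrp6-cat dis3-4 30 °C (SD, n = 2 each). Neighbours in that order overlapped, except the libraries labelled rrp6Δ with dis3-4 23 °C and rrp6-cat with rrp6-cat dis3-4 23 °C.

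A second M-factor gene, mfm1, had a different pattern and stood at a level well below mfm2. It was at 7.54 and 10.8 FPKM in rrp6-cat dis3-4 30 °C, at 11.9 and 7.82 FPKM in rrp6-cat dis3-4 23 °C, and the libraries labelled rrp6Δ had 10.0 and 8.16 FPKM. In dis3-4 it was listed at 0 in both 30 °C libraries and at 3.41 and 0.000822 FPKM in those at 23 °C. In rrp6-cat it was at 1.01 and 0.00109 FPKM, against 0.620 and 2.54 FPKM in the wild type. The 6 libraries of the double mutant and of the strain labelled rrp6Δ were at 7.54 FPKM or above, and the other 8 were at 3.41 FPKM or below.

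Of these differences, only that between the double mutant and dis3-4 at 30 °C passed the test for mfm1 (higher in rrp6-cat dis3-4, limma adjusted p = 0.046). No fold is given for it, since dis3-4 was listed at 0 in both libraries, and the call did not hold without any 1 of the 4 libraries compared. In dis3-4 30 °C replicate 2, mfm3, which shares sequence with mfm1, was at 5.26 FPKM. How reads were split between these genes was not tested, so the mfm1 value of 0 there is uncertain. Against the wild type, the log2 fold changes of mfm1 were 2.07 in rrp6-cat dis3-4 30 °C, 2.15 in rrp6-cat dis3-4 23 °C and 2.07 in the libraries labelled rrp6Δ (SE 0.74 each, limma adjusted p = 0.09, 0.085 and 0.095). None of the 3 passed, and no library overlapped. The dis3-4 30 °C libraries, listed at 0, lay below both of the wild type (limma adjusted p = 0.35) and both of dis3-4 23 °C (limma adjusted p = 1), without a call and with no fold given. The 8 libraries outside the double mutant and the strain labelled rrp6Δ averaged 0.948 FPKM, so mfm1 passed the filter of 1 FPKM through the libraries in which it is higher. The libraries labelled rrp6Δ exceeded those of rrp6-cat by 2.82 (limma adjusted p = 0.092), and the double mutant exceeded dis3-4 at 23 °C by 2.34 (limma adjusted p = 0.19).

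The third M-factor gene, mfm3, was listed at 0 in 12 libraries and at 2.37 FPKM in 1 library of rrp6-cat dis3-4 30 °C. In dis3-4 30 °C replicate 2, where mfm1 was listed at 0, mfm3 was at 5.26 FPKM. It was not tested. A non-coding RNA, SPNCRNA.1381, covers 100% of mfm3 on the opposite strand and was at 13.1 to 42.4 FPKM. The library kit keeps strand, but no source used here says whether the counting did.

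The gene of Ste11, which drives its own transcription as well as that of the M-factor genes, had its 3 highest library values in the double mutant. It was at 29.4 and 22.5 FPKM in rrp6-cat dis3-4 30 °C and at 31.5 and 28.3 FPKM in rrp6-cat dis3-4 23 °C, and the libraries labelled rrp6Δ had 19.2 and 19.9 FPKM. It was at 13.6 and 11.0 FPKM in dis3-4 30 °C, at 15.3 and 14.4 FPKM in dis3-4 23 °C, and at 9.34 and 7.91 FPKM in rrp6-cat. Its 2 wild type libraries were at 23.4 and 6.20 FPKM, a range that takes in every library of rrp6-cat, dis3-4 and the strain labelled rrp6Δ. In the order of group means, rrp6-cat dis3-4 30 °C lay above the libraries labelled rrp6Δ, and those above dis3-4 23 °C, without overlap.

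No comparison called ste11. Its log2 fold change was 1.22 in rrp6-cat dis3-4 23 °C against the wild type (SE 0.46, limma adjusted p = 0.11), 1.10 in the libraries labelled rrp6Δ against rrp6-cat (limma adjusted p = 0.36), and 1.01 in rrp6-cat dis3-4 30 °C against dis3-4 30 °C (limma adjusted p = 0.3). What the wild type comparisons give for ste11 depends on which wild type library is kept. Without wild type replicate 1, ste11 was called higher in rrp6-cat dis3-4 30 °C (1.89, limma adjusted p = 0.0015), in rrp6-cat dis3-4 23 °C (2.1, limma adjusted p = 0.00091), in the libraries labelled rrp6Δ (1.52, limma adjusted p = 0.0059) and in dis3-4 23 °C (1.14, limma adjusted p = 0.037). Without wild type replicate 2, it was called lower in rrp6-cat than in the wild type (-1.34, limma adjusted p = 0.048).

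**Figure D2:**
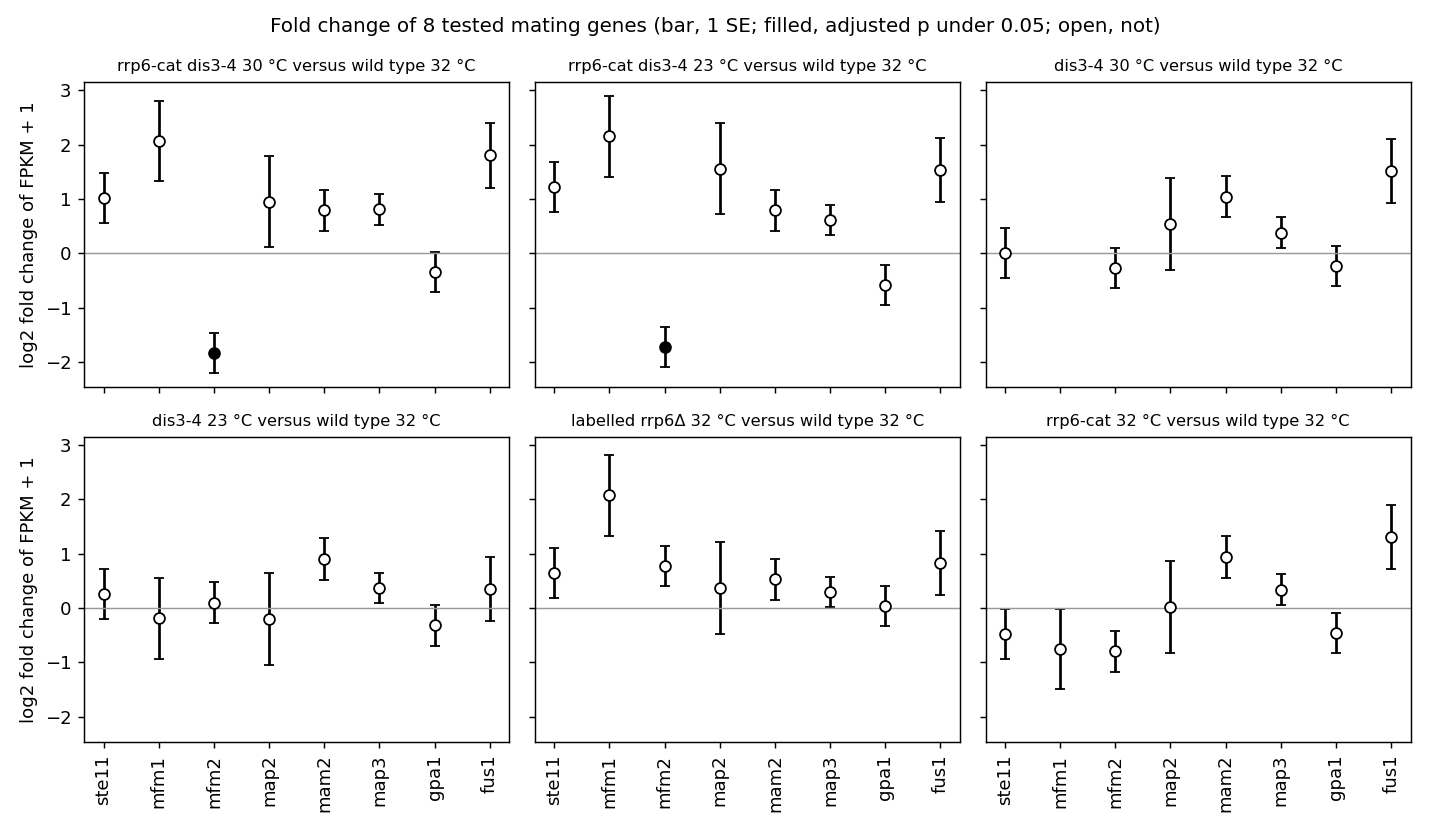
Log2 fold change of FPKM + 1 against the wild type for the 8 tested mating genes, in 6 panels, 1 per mutant group; bars are 1 standard error, and filled circles are calls. The point of mfm1 in dis3-4 30 °C is left out, as both of those libraries are listed at 0. Only mfm2 is filled, at -1.84 in rrp6-cat dis3-4 30 °C and -1.72 in rrp6-cat dis3-4 23 °C. In both of those panels gpa1 lies below 0 and ste11, mfm1, map2, mam2, map3 and fus1 lie above 0, without a call.

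The receptor genes were among the more abundant members and were not called in any comparison. The P-factor receptor gene mam2 was at 48.4 and 84.2 FPKM in rrp6-cat dis3-4 30 °C, 58.7 and 69.7 FPKM in rrp6-cat dis3-4 23 °C, 91.0 and 63.7 FPKM in dis3-4 30 °C and 73.6 and 65.1 FPKM in dis3-4 23 °C. The libraries labelled rrp6Δ had 78.1 and 36.0 FPKM, and mam2 was at 76.6 and 65.5 FPKM in rrp6-cat and 44.6 and 29.8 FPKM in the wild type. The wild type had the lowest mean, 37.2 ± 10.5 FPKM (SD, n = 2), and the libraries of every mutant group but that labelled rrp6Δ lay above it. For dis3-4 30 °C the log2 fold change was 1.04 (SE 0.38, limma adjusted p = 0.13), and mam2 was called under library size factors in place of the deposited scaling (1.08, limma adjusted p = 0.045).

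The M-factor receptor gene map3 varied less. It was at 49.6 and 49.95 FPKM in rrp6-cat dis3-4 30 °C, 52.2 and 35.7 FPKM in rrp6-cat dis3-4 23 °C, 37.0 and 36.2 FPKM in dis3-4 30 °C and 40.8 and 32.5 FPKM in dis3-4 23 °C. The libraries labelled rrp6Δ had 41.8 and 28.2 FPKM, and map3 was at 36.1 and 35.2 FPKM in rrp6-cat and 32.2 and 24.3 FPKM in the wild type. Like mam2, map3 had its lowest mean in the wild type, and the libraries of its groups mostly overlapped with those next in order. The gene his6, which covers 99.8% of map3 on the opposite strand, was at 2.57 to 16.5 FPKM.

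The P-factor gene map2 had low values throughout. It was at 1.22 and 3.71 FPKM in rrp6-cat dis3-4 30 °C and at 4.90 and 3.10 FPKM in rrp6-cat dis3-4 23 °C. It was at 1.42 and 1.45 FPKM in dis3-4 30 °C, at 1.11 and 0.000164 FPKM in dis3-4 23 °C, and the libraries labelled rrp6Δ had 2.26 and 0.421 FPKM. It was at 1.86 and 9.34e-05 FPKM in rrp6-cat and at 1.79 and 0.00014 FPKM in the wild type. The 2 libraries of rrp6-cat dis3-4 23 °C lay above both of dis3-4 23 °C (log2 fold change 1.76, SE 0.84, limma adjusted p = 0.43) and of the wild type (1.56, limma adjusted p = 0.27), without a call.

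The formin gene fus1 had its highest mean in the double mutant at 30 °C. It was at 6.98 and 8.86 FPKM in rrp6-cat dis3-4 30 °C, at 6.74 and 6.11 FPKM in rrp6-cat dis3-4 23 °C and at 4.23 and 9.21 FPKM in dis3-4 30 °C. In dis3-4 23 °C it was at 2.17 and 2.32 FPKM. The libraries labelled rrp6Δ had 6.57 and 1.68 FPKM, and fus1 was at 4.52 and 6.25 FPKM in rrp6-cat, and at 2.41 and 0.908 FPKM in the wild type. The non-coding RNA SPNCRNA.1026, which covers 68.5% of fus1 on the opposite strand, was at 9.73 to 49.8 FPKM.

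Against the wild type, fus1 had log2 fold changes of 1.80 in rrp6-cat dis3-4 30 °C (SE 0.59, limma adjusted p = 0.064), 1.54 in rrp6-cat dis3-4 23 °C (limma adjusted p = 0.12), 1.52 in dis3-4 30 °C (limma adjusted p = 0.15) and 1.31 in rrp6-cat (limma adjusted p = 0.28). In each of these pairs the libraries did not overlap, and none was called. The same held between the 2 temperatures of dis3-4 (1.17 at 30 °C against 23 °C, limma adjusted p = 1) and between the double mutant and dis3-4 at 23 °C (1.19, limma adjusted p = 0.45). Without wild type replicate 1, fus1 was called higher in rrp6-cat dis3-4 30 °C (2.22, limma adjusted p = 0.034), and so was map3 (1.01, limma adjusted p = 0.036).

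The G protein gene gpa1 stayed between 4.94 and 9.49 FPKM. It was at 7.23 and 6.59 FPKM in rrp6-cat dis3-4 30 °C, 4.94 and 6.51 FPKM in rrp6-cat dis3-4 23 °C, 6.55 and 8.62 FPKM in dis3-4 30 °C and 6.52 and 7.55 FPKM in dis3-4 23 °C. The libraries labelled rrp6Δ had 9.49 and 8.94 FPKM, and gpa1 was at 5.08 and 7.71 FPKM in rrp6-cat and 9.24 and 8.79 FPKM in the wild type. It was not called in any comparison and had no log2 difference of 1 or more between groups that did not overlap. SPNCRNA.1503, on the opposite strand over 47.3% of gpa1, was at 39.9 to 104 FPKM.

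Counted over all members, few were called in any comparison, as were few features of the whole table in some of them. Against the wild type, rrp6-cat dis3-4 30 °C had 1 of 8 members called, lower, where 13.9% of the 6083 features were called. For rrp6-cat dis3-4 23 °C it was 1 of 8, lower, where 11.8% were called. No member was called by limma in the libraries labelled rrp6Δ, where 12.5% of features were called, in dis3-4 30 °C (8.58%), in rrp6-cat (5.64%) or in dis3-4 23 °C (5.11%), with 1, 2, 2 and 1 members at an unadjusted p under 0.05. Over all features, 26.0%, 22.4%, 17.0% and 18.0% were under that value in these 4 comparisons. With 8 genes, 1 of 8 is the smallest share above 0 that can be seen, so these counts are not read as differing from the background.

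Between mutants, 1 of 8 members was called higher in rrp6-cat dis3-4 30 °C against dis3-4 30 °C, where 1.84% of all features were called, and 1 of 8 was called lower in rrp6-cat dis3-4 23 °C against dis3-4 23 °C, where 0.986% were called. The member called at 30 °C was mfm1, which passed the filter through the libraries in which it is higher. Counts of 1 of 8 are here also not read as differing from the background. No member was called in the libraries labelled rrp6Δ against rrp6-cat, with 3 at an unadjusted p under 0.05, where 12.3% of all features were, and 1.69% of features called by limma. The shift of 1 h to 30 °C called no feature at all, 0%, in either strain, and no member had an unadjusted p under 0.05, while 273 features did in dis3-4 and 96 did in rrp6-cat dis3-4. The interaction of shift and rrp6-cat likewise called 0% by limma, with 163 features and no member at an unadjusted p under 0.05.

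The median log2 fold change of the 8 members against the wild type was 0.88 in rrp6-cat dis3-4 30 °C, where the median of all features was 0.24, and 1 in rrp6-cat dis3-4 23 °C, where it was 0.15. In the libraries labelled rrp6Δ it was 0.58, where the median of all features was 0.23. In dis3-4 30 °C, dis3-4 23 °C and rrp6-cat it was 0.19, 0.18 and -0.22, where the medians of all features were -0.03, 0.02 and 0.18. The medians of all features depended on the scaling: for rrp6-cat dis3-4 30 °C it was 0.03 with library size factors and -0.13 with quantile normalization. Over the 14 libraries, Pearson correlations of log2(FPKM + 1) between members ran from -0.68 for map3 and mfm2 to 0.76 for map3 and fus1, and mfm1 and mfm2 had -0.33; these libraries share groups and scaling, so the values only describe.

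The features whose levels ran most like each member, by Pearson correlation of log2(FPKM + 1) over the 14 libraries, included no other member in the first 3 places. For mfm2 they were its8 (0.913), sdh8 (0.909) and naa25 (0.897). For mfm1 they were cbh2 (0.884), pdi4 (0.881) and atg2 (0.877). For ste11 they were ags1 (0.922), tbc1 (0.903) and rpb2 (0.894). The closest feature was rix7 for map3 (0.927), dbl1 for fus1 (0.922), SPBC4.02c for map2 (0.909), rsm27 for mam2 (0.874) and crt10 for gpa1 (0.744).

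The markers of the 2 mating types, which include members, are given beside these results. All 9 M markers were in the table (mfm1, mfm2, mfm3, mam1, mam2, mam3, sxa2, mat1-Mc and mat1-Mi), and they summed to 109 to 151 FPKM in rrp6-cat dis3-4 30 °C, to 125 to 136 FPKM in rrp6-cat dis3-4 23 °C, to 282 to 296 FPKM in the libraries labelled rrp6Δ and to 132 to 186 FPKM in the wild type. Sums in dis3-4 30 °C, dis3-4 23 °C and rrp6-cat were 163 to 227, 176 to 205 and 158 to 160 FPKM. Of 5 P markers, 3 were in the table (map2, map3 and map4), and they summed to 60.5 to 63.7 FPKM in rrp6-cat dis3-4 30 °C and to 49.4 to 64.9 FPKM in rrp6-cat dis3-4 23 °C, against 29.1 to 45.2 FPKM in the wild type. They summed to 39.9 to 44.6 FPKM in dis3-4 30 °C, 37.1 to 51.6 FPKM in dis3-4 23 °C, 41.8 to 61.2 FPKM in the libraries labelled rrp6Δ and 42.7 to 50.05 FPKM in rrp6-cat. Of these markers, mat1-Mi was listed at or near 0 in all 14 libraries.

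The sums depend on the genes taken, and their direction in the double mutant is not read as a shift between mating types. Without mfm2, the M markers summed to 87.7 to 128 FPKM in rrp6-cat dis3-4 30 °C and 105 to 108 FPKM in rrp6-cat dis3-4 23 °C, against 57.0 to 97.6 FPKM in the wild type, so the double mutant's sums reached lower than those of the wild type with mfm2 counted and not without it. The M cell gene mam4, which is not among the markers, averaged 33.5 ± 7.07 and 26.7 ± 3 FPKM in the double mutant at 30 and 23 °C, against 14.4 ± 7.31 FPKM in the wild type (SD, n = 2 each). The P cell gene sxa1, also not among them, ran opposite to the P sum, at 115 ± 9.22 and 109 ± 12.5 FPKM in the double mutant at 30 and 23 °C, against 175.5 ± 14.9 FPKM in the wild type (SD, n = 2 each). With sxa1 and map1, the other P cell genes in the table, added, the P sums were 183 to 194 FPKM in rrp6-cat dis3-4 30 °C and 156 to 189 FPKM in rrp6-cat dis3-4 23 °C, against 197 to 236 FPKM in the wild type.

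The gene mat1-Mc, which encodes a transcription factor of M cells, was listed at 0 in all 4 libraries of rrp6-cat dis3-4. It was at 4.56 and 9.35 FPKM in dis3-4 30 °C and at 5.35 and 0 FPKM in dis3-4 23 °C. The libraries labelled rrp6Δ had 42.4 and 16.2 FPKM, and mat1-Mc was at 12.7 and 14.8 FPKM in rrp6-cat, and at 14.8 and 0 FPKM in the wild type. It was not called in any comparison, and all 522 of its stretches of 25 bases also occur in its silent copy mat3-Mc, so reads cannot be assigned between the copies. A feature chosen after its values were seen was SPMTR.01, which the reference does not annotate. Its ID series was taken here to belong to the mating-type region. SPMTR.01 was at 8.38 to 42.6 FPKM in all 8 libraries of the dis3-4 strains and was listed at 0 in all 6 libraries grown at 32 °C. Whether these strains differ in mating type was not tested. SPMTR.02, of the same ID series, averaged 0 in every group at 32 °C. It averaged 4.85 ± 3.19 and 2.03 ± 2.88 FPKM in dis3-4 at 30 and 23 °C. In the double mutant it averaged 6.53 ± 4.71 and 6.66 ± 2.65 FPKM (SD, n = 2 each). SPMTR.03 and SPMTR.04 averaged 0 in every group. In bulk RNA, fewer cells of a type and less RNA per cell cannot be told apart. The part of mating type composition, strain and growth temperature in the mfm2 result was not tested.

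**Figure D3:**
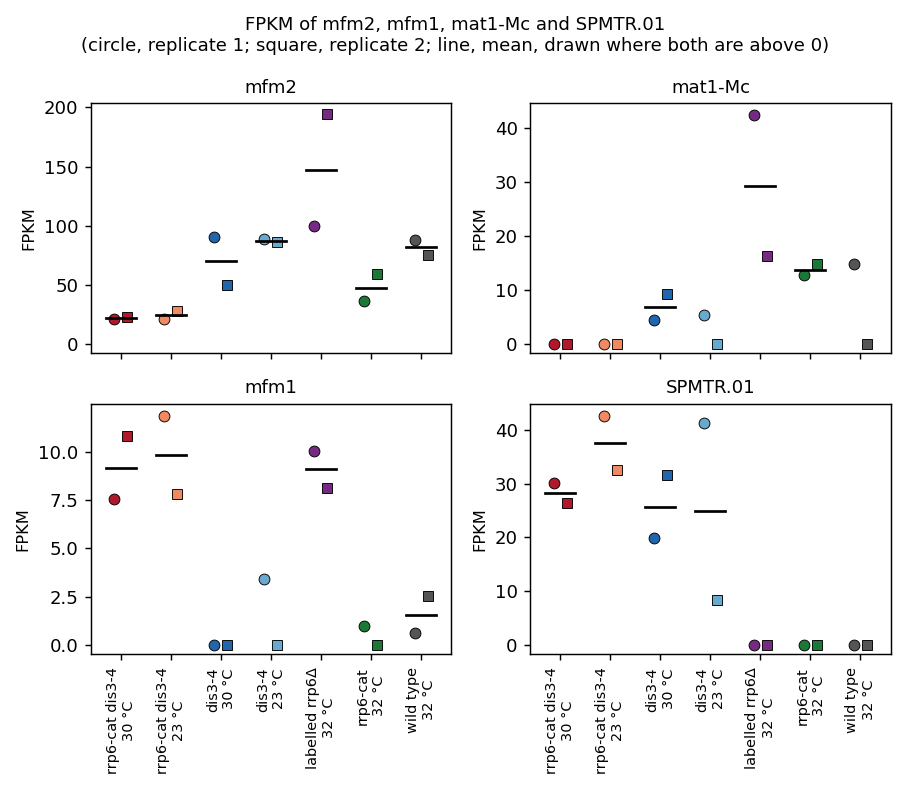
FPKM (linear axis) of mfm2, mfm1, mat1-Mc and SPMTR.01 in the 14 libraries, with the groups along the horizontal axis. In rrp6-cat dis3-4, mfm2 is at 20.8 to 27.8 FPKM and mat1-Mc is listed at 0 in all 4 libraries, while SPMTR.01 is at 26.4 to 42.6 FPKM there and is listed at 0 in the 6 libraries at 32 °C.

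Among the other genes of the pathway, 24 regulators of ste11 were listed and 23 were tested, all but sty1. Those called higher than in the wild type numbered 4 in rrp6-cat dis3-4 30 °C, where 11.7% of all features were called higher, 3 in rrp6-cat dis3-4 23 °C (9.42% of all features) and 3 in the libraries labelled rrp6Δ (9.81%). In dis3-4 30 °C, dis3-4 23 °C and rrp6-cat 1 each was called higher, where 6.38%, 4.39% and 4.88% of all features were. These counts lie near those shares and are not read as a result about the list, and none was called lower. The gene called in all 6 was rep1, which encodes a cofactor for transcription before meiotic S phase and is also on the meiotic entry list. In dis3-4 30 °C, dis3-4 23 °C and rrp6-cat it was the only gene of the regulator list called. Its place on that list is as the list was drawn up, and an effect on ste11 was not tested. The level of rep1 was 33.2 and 36.0 FPKM in rrp6-cat dis3-4 30 °C, and the libraries labelled rrp6Δ had 81.5 and 77.5 FPKM. It was at 21.6 and 18.2 FPKM in rrp6-cat, against 5.34 and 4.55 FPKM in the wild type. Its log2 fold changes against the wild type were 2.59, 3.76 and 1.81 in these groups (limma adjusted p = 7.9e-05, 3.4e-06 and 0.0016), and every library of every mutant group lay above both wild type libraries. The call for the libraries labelled rrp6Δ held in all 13 alternatives and those for the other 5 groups in 12, all but the compared groups fitted alone.

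The gene cgs1, which encodes the regulatory subunit of protein kinase A, an inhibitor of the kinase that represses ste11, rose in the double mutant. It was at 51.8 and 45.5 FPKM in rrp6-cat dis3-4 30 °C, against 12.6 and 4.54 FPKM in dis3-4 30 °C (log2 fold change 2.51, limma adjusted p = 0.012). At 23 °C it was at 41.9 and 49.6 FPKM in the double mutant, against 10.4 and 11.6 FPKM in dis3-4 (1.95, limma adjusted p = 0.048). Against the wild type, at 16.5 and 15.4 FPKM, the differences were 1.55 and 1.46 (limma adjusted p = 0.027 at 30 °C and 0.039 at 23 °C). The 4 double mutant libraries, at 41.9 to 51.8 FPKM, lay above the other 10, at 4.54 to 37.9 FPKM. As with mfm2, the calls were lost without single libraries: the call against dis3-4 30 °C ended without either double mutant library or dis3-4 30 °C replicate 2, that against dis3-4 23 °C without any 1 of the 4, and those against the wild type without either double mutant library or wild type replicate 2.

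**Figure D4:**
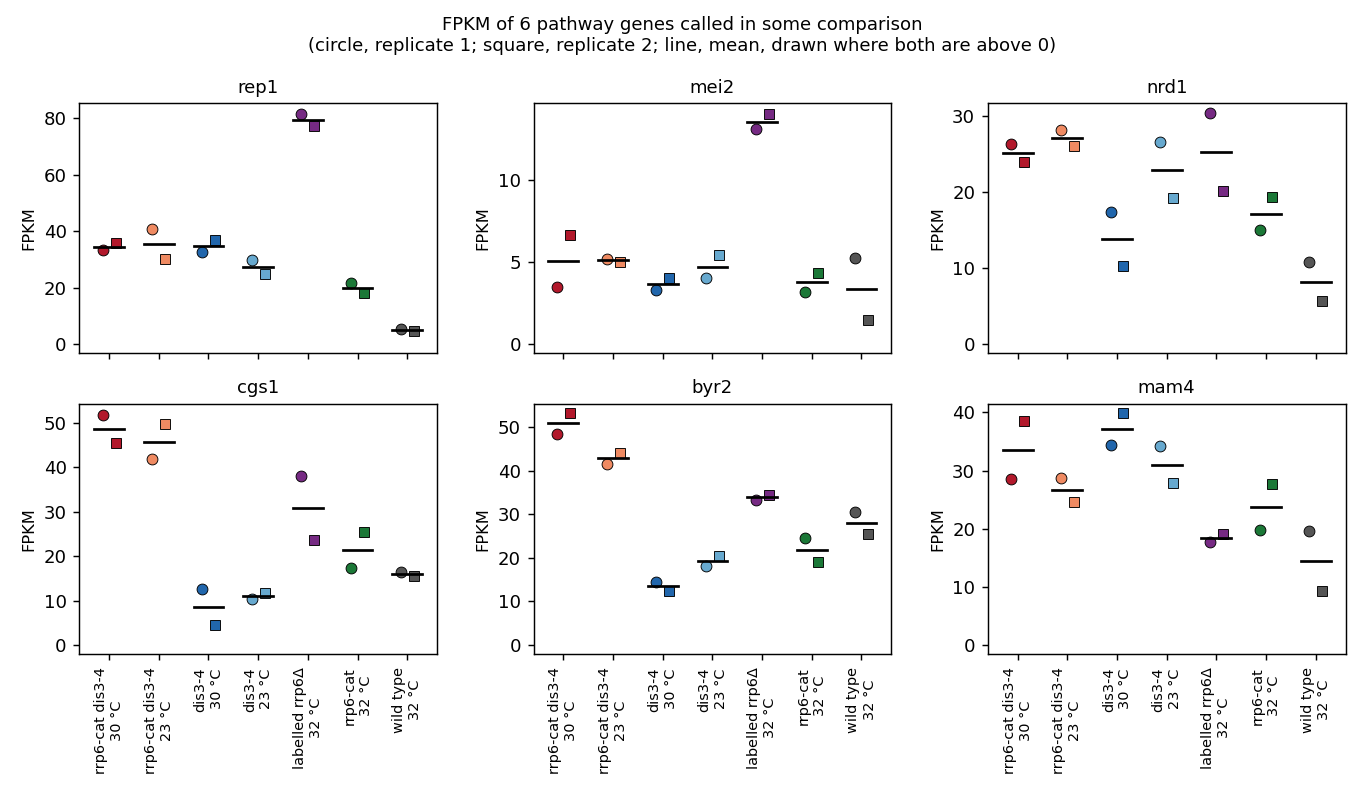
FPKM (linear axis) of 6 pathway genes that were called in some comparison, in the 14 libraries, with the groups along the horizontal axis. The rep1 values of every mutant group lie above the wild type at 5.34 and 4.55 FPKM, and cgs1 and byr2 are highest in the 4 libraries of rrp6-cat dis3-4.

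The gene nrd1, which encodes an RNA-binding protein that represses Ste11-dependent genes, was called higher against the wild type in rrp6-cat dis3-4 30 °C (1.56, limma adjusted p = 0.018), in rrp6-cat dis3-4 23 °C (1.67, limma adjusted p = 0.015) and in the libraries labelled rrp6Δ (1.54, limma adjusted p = 0.021). The gene git5, which encodes the G protein beta subunit of glucose sensing, was called higher in rrp6-cat dis3-4 30 °C (2.13, limma adjusted p = 0.038) and in the libraries labelled rrp6Δ (2.03, limma adjusted p = 0.049). These nrd1 and git5 calls did not hold without wild type replicate 2, and each was also lost without 1 or both of the mutant's own libraries. They were lost as well with array weights and with the compared groups fitted alone.

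Of 6 genes listed for meiotic entry, 5 were tested, rep1 among them. Against the wild type, 3 were called higher in rrp6-cat dis3-4 30 °C, 2 in rrp6-cat dis3-4 23 °C and 3 in the libraries labelled rrp6Δ, and rep1 alone in the other mutant groups, with the shares of all features called higher as given above. With 5 genes, nothing is read from these counts about the list. The gene mmi1 rose to 38.5 and 47.1 FPKM in rrp6-cat dis3-4 30 °C, against 16.2 and 6.67 FPKM in the wild type (1.92, limma adjusted p = 0.0075). It was also called in rrp6-cat dis3-4 23 °C (1.66, limma adjusted p = 0.018) and in the libraries labelled rrp6Δ (1.49, limma adjusted p = 0.027), and these last 2 calls were lost without wild type replicate 2 or either of the mutant's own libraries. The call in rrp6-cat dis3-4 30 °C was lost without replicate 2 of that group. The gene mei2, which encodes the RNA-binding protein that starts meiosis, reached 13.0 and 14.0 FPKM in libraries labelled rrp6Δ, against 5.20 and 1.45 FPKM in the wild type (1.90, limma adjusted p = 0.033). The gene mei3, which encodes an inhibitor of the kinase Pat1, was at 6.59 and 7.51 FPKM in rrp6-cat dis3-4 30 °C, against 0.339 and 0 FPKM in the wild type (higher, limma adjusted p = 0.023). Both of these calls were lost without wild type replicate 2, without either of the mutant's own libraries and under quantile normalization.

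In the signalling list, 11 of 13 genes were tested, and byr2, which encodes the MAP kinase kinase kinase below Ras1, was the only one called in any comparison. It was at 48.6 and 53.3 FPKM in rrp6-cat dis3-4 30 °C, against 14.5 and 12.5 FPKM in dis3-4 30 °C (1.84, limma adjusted p = 0.005; lost without either double mutant library). Against the wild type, at 30.5 and 25.4 FPKM, it was higher in rrp6-cat dis3-4 30 °C (0.85, limma adjusted p = 0.045) and lower in dis3-4 30 °C (-0.99, limma adjusted p = 0.031). The first of these was lost under size factors or quantile normalization and without wild type replicate 2, the second without wild type replicate 1, and each without either library of its own mutant group. The 2 genes that were not tested, ste6 and byr1, were listed at or near 0 in all 14 libraries.

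Of the remaining lists, none of 6 tested cell fusion genes was called by limma in any comparison, with 0 to 2 of them at an unadjusted p under 0.05. Between 0% and 13.9% of all features were called in these comparisons, so 0 of 6 is near the background. Of 5 tested M cell genes beside the members, and of 6 tested genes of pheromone processing, the only one called was mam4, in both lists, which encodes the enzyme that methylates M-factor. It was at 28.5 and 38.5 FPKM in rrp6-cat dis3-4 30 °C and at 34.4 and 39.9 FPKM in dis3-4 30 °C, against 19.6 and 9.23 FPKM in the wild type (1.23 and 1.39, limma adjusted p = 0.037 and 0.03; both lost without wild type replicate 2 or either of the mutant's own libraries). Of 3 tested P cell genes, sxa1, a protease gene, was called lower in dis3-4 30 °C, at 101 and 63.6 FPKM, against 186 and 165 FPKM in the wild type (-1.12, limma adjusted p = 0.016). That call was lost without dis3-4 30 °C replicate 2.

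The median log2 fold change of each list in rrp6-cat dis3-4 30 °C against the wild type can be set beside the 0.24 of all features. It was 1.92 for the 5 meiotic entry genes, 0.49 for the 23 regulators of ste11, 0.37 for the 3 P cell genes and 0.35 for the 6 fusion genes. It was 0.23 for the 11 signalling genes, 0.19 for the 6 processing genes and 0.13 for the 5 M cell genes. In dis3-4 30 °C against the wild type, where the median of all features was -0.03, the M cell genes had 0.73, the P cell genes -0.8, the regulators of ste11 -0.24 and the meiotic entry genes 0.25.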

How the data were processed

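The authors deposited FPKM values for 7027 features in each of 14 libraries of polyA RNA. The submitters' processing notes name Cuffnorm, TopHat2 2.1.0, Bowtie2, Cufflinks 2.2.1, Cuffdiff and build ASM294v2. Annotation, scaling, strand use and read totals: not given in the sources used here. Not analysed were a second table, from Cuffdiff, with 1 value per condition, and 3 coverage files of 3′-ligated libraries.

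The values were tested with limma 3.58.1 in R 4.3.3 on log2(FPKM + 1): 1 model of 7 group means, empirical Bayes with trend, two-sided, over the 6083 features with a mean of at least 1 FPKM, with Benjamini-Hochberg adjustment. The fit was tested on simulated data. IDs were matched to RefSeq ASM294v3 for 6839 of 7027 features. Members and lists were chosen with earlier results of these data known. Fold changes were printed for called members and for those with a log2 difference of 1 or more without overlap, except where a group was listed at 0 in both libraries. In other lists, called genes were named. Alternatives covered pseudocount, filter, scaling, weights, replicate block, the compared groups alone and each library left out.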

Additional observations from a re-analysis of the deposited data

How the results depend on the processing

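Of 160 alternative counts of called members, 123 stayed within 1.5 times the reported count and 37 moved. No reported value reversed its sign. The 123 include counts of 0 that stayed at 0, so this total does not measure how stable the calls were. How often each call held is given in the next paragraph. Leaving out each library in turn gave 0 to 1 members for the libraries labelled rrp6Δ, rrp6-cat and dis3-4 23 °C against the wild type, 0 to 2 for rrp6-cat dis3-4 23 °C, 0 to 4 for rrp6-cat dis3-4 30 °C, and 0 in every case for the double mutant against dis3-4 at either temperature. With a pseudocount of 5 FPKM the counts were 1 for the libraries labelled rrp6Δ against the wild type, 2 for rrp6-cat dis3-4 at either temperature and 2 for the libraries labelled rrp6Δ against rrp6-cat, and with 0.5 FPKM the count was 0 for rrp6-cat dis3-4 30 °C against dis3-4 30 °C. With size factors dis3-4 30 °C against the wild type had 1. With quantile normalization the libraries labelled rrp6Δ against rrp6-cat had 1, and rrp6-cat dis3-4 30 °C against dis3-4 30 °C had 2. With array weights rrp6-cat dis3-4 23 °C against the wild type had 0, the libraries labelled rrp6Δ against rrp6-cat had 1, and the double mutant against dis3-4 had 2 at either temperature. With no filter the double mutant against dis3-4 had 0 at either temperature, and with a filter at a mean of 5 FPKM, 0 at 30 °C. That filter left mfm1, at a mean of 4.56 FPKM, untested. With the compared groups fitted alone, all 4 comparisons with a called member had 0; that fit has fewer libraries. The causes of the other changes were not tested. Shares of all features called under each setting are not given here, so these counts are not read as results about the members.

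Replicate numbers did not pair the libraries across all groups: the correlation of deviations ran from -0.15 to 0.31 over 21 pairs of groups, and 4 exceeded 0.1. Of these 4, 3 were the pairs among the groups at 32 °C (0.19, 0.27 and 0.31), where a shared effect of the number was not tested. With the replicate block, rrp6-cat dis3-4 30 °C against the wild type had 2 members called, mfm2 and map3 (0.81, limma adjusted p = 0.043), and the other comparisons kept their counts. The mfm2 fold change ran from -2.1 to -1.68 for rrp6-cat dis3-4 30 °C against the wild type, called in 10 of 13 alternatives, and from -1.92 to -1.52 at 23 °C, called in 9 of 13. Against dis3-4 23 °C it ran from -2.02 to -1.61, called in 7 of 13, and the mfm1 call against dis3-4 30 °C held in 4 of 12. With size factors that comparison still had 1 member, but it was mfm2 (-1.82, limma adjusted p = 0.045) in place of mfm1. Values of map2, mfm1 and mfm3 were listed at or near 0 in 3, 4 and 12 of the 14 libraries. The genes sty1 and ste6 were at or near 0 in at least 13 of 14 libraries. What part depth had in any of these values was not tested.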
